A study of Mus musculus with 2 samples.

Results

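Natural killer (NK) cells were described in 2 droplet libraries of mouse mammary tumours, with 323 cells from a Kindlin-2 knockout library and 96 cells from a control library, of 6962 knockout and 7747 control cells that passed filtering (419 of 14709 in all). The cells were chosen by their own RNA: a barcode needed 500 or more unique molecular identifiers (UMIs, which count RNA molecules), 200 or more genes, no more than 20% of its UMIs from mitochondrial genes, and 1 or more UMIs of Ncr1. It also had to hold 0 UMIs of Cd3e, Cd3d, Cd3g, Epcam and Siglech, and fewer than 5 UMIs of C1qa, C1qb and C1qc together per 10000 UMIs. Ncr1 and the absence of these other genes are therefore no finding. The knockout tumours grew from 4T1 cells with a guide RNA against Kindlin-2 (K2-KO, K2 sgRNA), and the control tumours from 4T1 cells labelled WT with a control guide RNA (Ctrl sgRNA). 4T1 cells come from a mammary carcinoma of BALB/c mice and serve in studies of triple-negative breast cancer. Both groups shared the host, female BALB/c mice, and the site, the mammary fat pad, and the guides were given to the 4T1 cells, so the NK cells are cells of the host. Tumours excised at 150 mm3 were digested with collagenase over 45 min, and sorting took live cells with and without mCherry in proportions that the labels do not give. The number of tumours behind each library is not stated either, and there was 1 library per group. No difference can therefore be tested against the spread between tumours, and every interval is an exact 95% interval that covers counting error only.

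NK cells are innate lymphocytes that kill target cells by releasing perforin and granzymes, and that secrete interferon gamma and chemokines. In the mouse they mature through stages read from CD27 and CD11b, the product of Itgam, under the transcription factors Eomes and T-bet. A related tissue-resident population, group 1 innate lymphoid cells (ILC1), also carries the Ncr1 receptor but is marked by CD49a, the product of Itga1, and by Cxcr6 and TRAIL, and in many tissues has little Eomes.

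The knockout library held 7250 barcodes and 180774106 UMIs, and the control library 8038 barcodes and 214163620 UMIs. NK cells were of like depth in both, with a median of 6456 UMIs and 2397 genes per knockout cell and 6518 UMIs and 2407 genes per control cell. They held 2712389 UMIs in the knockout and 725646 UMIs in the control, so the control values are the less precise ones. The 2 libraries shared 13 barcodes, 1 of them a knockout NK cell, and no barcode was an NK cell in both. Fermt2, which encodes Kindlin-2, stood at 18.01 UMIs per 1000000 UMIs (CPM; 17.3 to 18.8) in knockout cells with an Epcam UMI and at 41.2 CPM (40.2 to 42.2) in control cells with one. In the NK cells, which come from the host, it had 3 UMIs in the knockout and 1 UMI in the control.

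The label was checked against 15 NK markers, of which only Ncr1 had chosen the cells, and all 15 were detected in both libraries. Their UMIs had a median of 96 per knockout cell and 78 per control cell. Tyrobp, the signalling adaptor of activating NK receptors, stood at 1289 CPM in knockout NK cells against 55.6 CPM in knockout CD8 T cells, and at 1273 CPM in control NK cells against 27.8 CPM in control CD8 T cells. Klrb1c, the NK1.1 receptor gene, was found in 61.0% of knockout and 49.0% of control NK cells, and in 0.510% of knockout and 0.543% of control CD8 T cells. Cd8a and Cd8b1, which the rule did not use, had no UMI in the NK cells of either library. Cd4, Cd5, Cd6 and Themis had none in the control but were detected in the knockout. The list of 15 T cell markers that holds these genes summed to 831 CPM in the knockout and 816 CPM in the control. Its UMIs had a median of 5 per knockout cell and 6 per control cell. Trbc1, a T cell receptor constant gene of which NK cells are known to carry unrearranged transcripts, was found in 271 of 323 knockout and 78 of 96 control cells. Trdc, another T cell receptor constant gene, was found in 48.9% of knockout and 33.3% of control cells. Beside T cells, these cells thus carry the NK receptor and adaptor genes, and ILC1, which share Ncr1, are not separated from NK cells by the rule. A list of 8 ILC1 markers summed to 780.5 CPM in the knockout and 1075 CPM in the control, with Zfp683 at 0 in the knockout.

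Some cells that met the rule also held RNA of other cell types. At least 10 UMIs of a neutrophil, mast cell, tumour, fibroblast, dendritic cell or macrophage marker list were found in 15 of 323 knockout cells and in 10 of 96 control cells. Over all NK cells, the neutrophil list summed to 182 CPM in the knockout and 464 CPM in the control, with its defining gene Ly6g at 0 in both. The tumour list summed to 77.1 CPM in the knockout and 380.4 CPM in the control, the mast cell list to 166 CPM and 186 CPM, and the fibroblast list to 369 CPM and 31.7 CPM. B cell markers were nearly absent, at 0 CPM in the knockout and 1.38 CPM in the control. The neutrophil list accounted for 9 knockout and 4 control cells. One knockout cell held 966 UMIs of the fibroblast list, and 1 control cell held 145 UMIs of the tumour list. More than 20000 UMIs were held by 21 knockout cells and 3 control cells. Scrublet, run per library, called 5 of the knockout and 2 of the control NK cells doublets, and these stayed in. Their part in the results was not tested beyond the values given with such cells left out.

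The rule's thresholds passed over mixed barcodes. Of the filtered cells with an Ncr1 UMI, 509 in the knockout and 145 in the control, 186 knockout and 49 control cells were left out. Of these, 117 knockout and 23 control cells held a Cd3 UMI, and 67 knockout and 27 control cells an Epcam UMI. Exactly 1 Ncr1 UMI, the least the rule allows, was held by 51 knockout and 18 control NK cells. Over both libraries, the 69 NK cells with 1 Ncr1 UMI had 3001 CPM of Gzma and 15.04 CPM of Trac. Just outside the rule, 35 cells with Ncr1 and a single Cd3 UMI had 2836 CPM of Gzma and 11.2 CPM of Trac, and 85 cells with more than 1 Cd3 UMI had 1439 CPM of Gzma and 215 CPM of Trac.

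The 3 genes that mark these cells are shown with the 250 bases before their starts (RefSeq, GRCm38.p6), together with 2 granzyme genes whose RNA lay in a few cells. Capitals mark TGTGGT or its reverse complement ACCACA, a core motif of the Runx family, searched on both strands.
Ncr1, chr7:4337465-4337714, plus strand: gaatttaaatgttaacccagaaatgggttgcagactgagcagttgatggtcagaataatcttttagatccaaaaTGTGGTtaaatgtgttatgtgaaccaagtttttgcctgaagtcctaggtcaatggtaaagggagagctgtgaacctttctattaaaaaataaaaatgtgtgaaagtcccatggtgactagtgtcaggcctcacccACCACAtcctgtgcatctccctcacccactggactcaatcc
Gzma, chr13:113100982-113101231, minus strand: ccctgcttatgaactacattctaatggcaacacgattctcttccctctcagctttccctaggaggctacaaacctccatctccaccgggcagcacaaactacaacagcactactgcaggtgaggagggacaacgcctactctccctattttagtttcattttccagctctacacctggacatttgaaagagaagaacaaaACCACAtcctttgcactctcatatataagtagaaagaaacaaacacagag
Xcl1, chr1:164935523-164935772, minus strand: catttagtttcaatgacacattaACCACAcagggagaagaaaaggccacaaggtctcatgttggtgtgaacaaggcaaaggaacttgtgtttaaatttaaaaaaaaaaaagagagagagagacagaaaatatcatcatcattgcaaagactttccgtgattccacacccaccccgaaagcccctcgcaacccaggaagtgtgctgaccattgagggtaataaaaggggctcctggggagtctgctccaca
Gzmc, chr14:56234658-56234907, minus strand: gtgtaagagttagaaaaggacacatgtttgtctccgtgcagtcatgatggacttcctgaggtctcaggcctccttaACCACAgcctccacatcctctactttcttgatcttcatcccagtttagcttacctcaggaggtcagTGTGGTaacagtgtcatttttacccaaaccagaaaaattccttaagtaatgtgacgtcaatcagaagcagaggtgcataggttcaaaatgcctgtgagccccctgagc
Gzmf, chr14:56211408-56211657, minus strand: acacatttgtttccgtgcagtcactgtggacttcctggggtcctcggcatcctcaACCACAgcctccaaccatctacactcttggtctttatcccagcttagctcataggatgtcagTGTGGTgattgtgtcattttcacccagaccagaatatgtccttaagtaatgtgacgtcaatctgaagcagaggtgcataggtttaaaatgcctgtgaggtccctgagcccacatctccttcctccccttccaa
The windows of Ncr1, Gzmc and Gzmf hold 2 matches each, and those of Gzma and Xcl1 hold 1 each. A match is found in 14.05% of the 32851 promoter windows of this length. It is a description of the letters and not of a bound site.

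NK cells took a larger share of the knockout library. They made up 4.64% (4.16 to 5.16, Clopper-Pearson) of filtered knockout cells and 1.24% (1.005 to 1.51) of filtered control cells. The log2 ratio was 1.90 (1.57 to 2.25), which is 3.74-fold. The sort on mCherry can set how many tumour cells each library holds, so the share was also taken among cells with a Ptprc UMI (the leukocyte gene CD45) and no Epcam UMI. There it was 9.49% (8.52 to 10.5) in the knockout and 3.31% (2.68 to 4.03) in the control, a log2 ratio of 1.52 (1.18 to 1.87). Against T cells, there were 36.3 NK cells per 100 in the knockout and 16.6 in the control, a log2 ratio of 1.13 (0.79 to 1.47). The share was thus higher in the knockout library by each of these denominators. Ncr1, which chose the cells, was found in 2.42% of knockout and 0.690% of control cells with Epcam, and in 1.15% of knockout and 0.0685% of control cells rich in C1q RNA. These cell types should lack it, and their shares too were higher in the knockout library, at median depths of 39140.5 and 36482 UMIs with Epcam and 14346 and 17470.5 UMIs with C1q. The part of such RNA in the NK share was not tested.

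Most genes stood near their control level in the knockout NK cells. Over 7006 genes with at least 50 UMIs in both libraries together, the median log2 ratio was 0.02 and 85.9% lay within 1.5-fold. At least 1.5-fold higher were 573 genes (8.18%), and at least 1.5-fold lower were 414 genes (5.91%). Those shares are the background for the counts of list members below over all NK cells, and not for counts with some cells left out. Many of these genes have few UMIs in the control. With each cell thinned to 2000 UMIs and the rule applied again, which left 244 knockout and 70 control NK cells, 260 genes were higher and 132 lower, among 2368 that kept 50 UMIs.

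**Figure D1:**
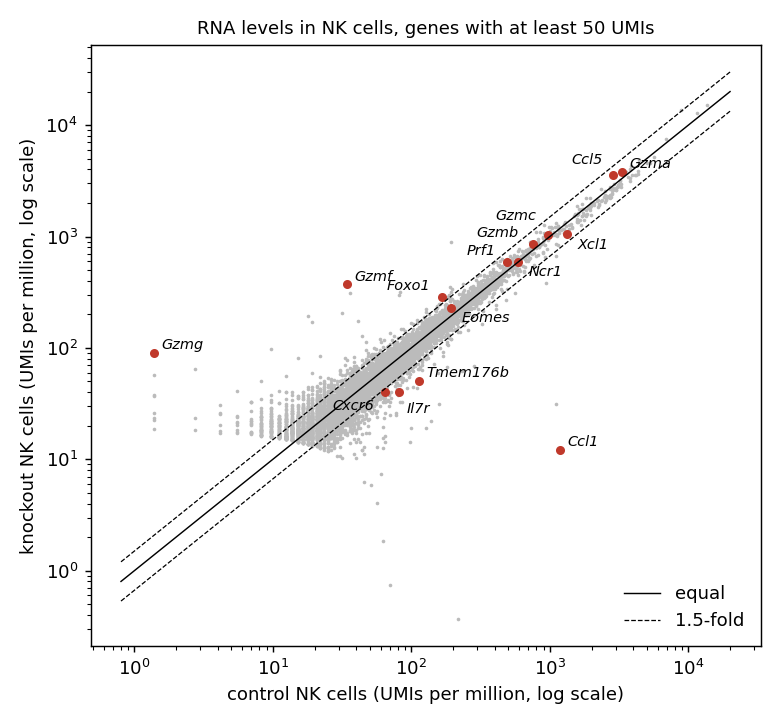
RNA levels in NK cells, with knockout on the y axis and control on the x axis, both in UMIs per 1000000 UMIs on log scales, for genes with at least 50 UMIs and a UMI in both libraries. Solid and dashed lines mark equal levels and a 1.5-fold difference. Gzma, Ncr1 and Eomes lie between the dashed lines, Gzmf and Gzmg far above them, and Ccl1 far below.

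Maturation genes as a whole were near equal in the 2 libraries. Of the 23 members of the list with at least 50 UMIs, of 25 in all, 3 were at least 1.5-fold higher (8.18% of all genes were) and 2 lower (5.91% of all genes were), with a median log2 ratio of 0.04. Cd27, a costimulatory receptor of the earlier stages, stood at 96.6 CPM in knockout and 89.6 CPM in control NK cells, a log2 ratio of 0.11 (-0.29 to 0.52). A Cd27 UMI was found in 41.5% (36.1 to 47.0) of knockout and 34.4% (24.98 to 44.8) of control cells, and in 18.8% and 19.1% after thinning to 2000 UMIs. Itgam, the later marker, was found in 16.7% (12.8 to 21.2) of knockout and 18.8% (11.5 to 28.0) of control cells. In T cells without Cd8a RNA or with Cd4 RNA, 5.04% of knockout and 5.58% of control cells held an Itgam UMI, at median depths of 6217 and 5056.5 UMIs, and the part of background in the NK value was not tested.

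Read together, the stage markers left many cells without either. Neither Cd27 nor Itgam was found in 46.7% of knockout and 57.3% of control cells. Cd27 without Itgam was found in 36.5% (31.3 to 42.0) of knockout and 24.0% (15.8 to 33.7) of control cells, and in 17.9% and 17.02% after thinning. Both were found in 4.95% of knockout and 10.4% of control cells, and Itgam without Cd27 in 11.8% of knockout and 8.33% of control cells. The intervals of each stage overlap between the libraries, and at this depth an absent UMI does not show an absent protein.

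Eomes, the transcription factor that sets NK cells apart from ILC1, was found in more of the knockout cells. An Eomes UMI was held by 67.8% (62.4 to 72.9) of knockout cells and 51.0% (40.6 to 61.4) of control cells. After thinning, the shares were 36.4% (31.1 to 41.9) in the knockout and 29.8% (20.8 to 40.1) in the control, and these intervals overlap. Its level was 230.1 CPM in the knockout and 193 CPM in the control, a log2 ratio of 0.25 (-0.01 to 0.53), and in the 18 knockout and 6 control cells with no T cell receptor constant UMI the ratio was -3.005. In cells rich in C1q RNA, which should lack it, 0.617% of knockout and 0.205% of control cells held an Eomes UMI, at median depths of 14346 and 17470.5 UMIs. Tbx21, which encodes T-bet, was level at 364 CPM in the knockout and 347 CPM in the control.

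The maturation genes past 1.5-fold were Foxo1, Prdm1 and Ly6c2 upward and Il7r and Cd7 downward. Foxo1, a transcription factor of lymphocyte quiescence and homing, stood at 286 CPM in knockout and 165 CPM in control NK cells, a log2 ratio of 0.79 (0.51 to 1.08). It was found in 64.7% of knockout and 53.1% of control cells, no cell held more than 8.33% of its UMIs, and its ratio stayed between 0.67 and 0.98 under the 14 alternatives run. Ly6c2, a surface gene of mature NK cells and monocytes, and Prdm1, which encodes Blimp-1, were the other 2 higher genes. For each of them, 1 cell held over 25% of the UMIs of a library. For Ly6c2, 5 control cells held 69.3% of the control UMIs. Il7r, the receptor chain of ILC and of immature NK cells, stood at 40.6 CPM in the knockout and 81.3 CPM in the control (log2 ratio -1.004, interval -1.47 to -0.52). Its ratio was -1.89 after thinning with the rule applied again. Cd7 stood at 138 CPM in the knockout and 225 CPM in the control (-0.70, -0.97 to -0.43).

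**Figure D2:**
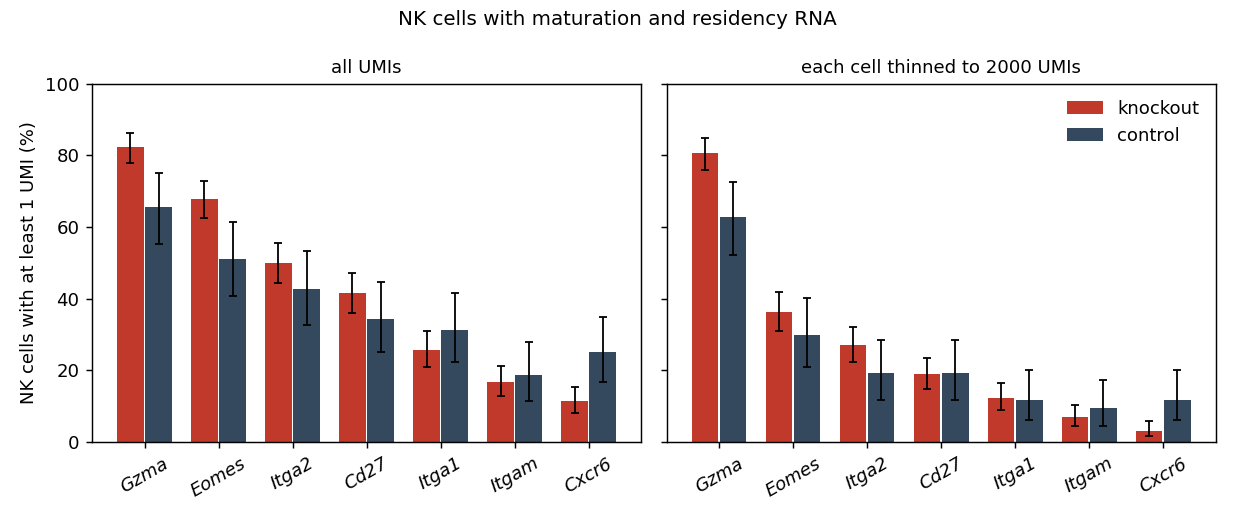
Share of NK cells with at least 1 UMI of each gene, in percent, with all UMIs (left) and with each cell thinned to 2000 UMIs (right), knockout in red and control in dark blue. Bars show the share and whiskers the exact 95% binomial interval. Gzma and Cxcr6 keep intervals that do not overlap between the libraries in both panels, whereas Cd27, Itga1 and Itgam overlap in both.

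Killing genes were led by Gzma, which encodes granzyme A, and the difference lay in how many cells held it. Gzma averaged 3803 CPM (3730 to 3877) over the knockout NK cells and 3320 CPM (3189 to 3455) over the control NK cells, a log2 ratio of 0.20 (0.13 to 0.26), and of 0.45 without cells over 20000 UMIs. A Gzma UMI was found in 266 of 323 knockout cells (82.4%, 77.7 to 86.4) and in 63 of 96 control cells (65.6%, 55.2 to 75.02). After thinning the shares were 80.6% in the knockout and 62.8% in the control. The median cell held 41.1 Gzma UMIs per 10000 in the knockout and 18.2 in the control. Among cells with the transcript, the level was 5171 CPM in the knockout and 5482 CPM in the control. In cells rich in C1q RNA the share was 1.59% in the knockout and 1.03% in the control, at median depths of 14346 and 17470.5 UMIs. With cells over 20000 UMIs left out, 84.8% of knockout and 65.6% of control NK cells held Gzma, and with cells of mixed lineage left out, 83.1% and 64.0%.

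Among the other killing genes, Tnfsf10 and Lamp1 were lower and most others were near level. Of 24 list members with at least 50 UMIs, of 26 in all, 5 passed 1.5-fold upward and 2 downward, and the median log2 ratio was 0.03. Prf1, which encodes perforin, stood at 590.3 CPM in the knockout and 489 CPM in the control (0.27, 0.10 to 0.44). It was found in 83.9% of knockout and 68.8% of control cells, but after thinning in 56.1% and 53.2%, and its ratio was 0.09 with each cell weighted equally. Gzmb stood at 850.2 CPM in the knockout and 755 CPM in the control (0.17, 0.04 to 0.31). Fasl, which encodes the death ligand FasL, stood at 255 CPM in the knockout and 251 CPM in the control. Nkg7, a granule membrane protein gene, and Srgn, which encodes the granule proteoglycan serglycin, had log2 ratios of -0.08 and 0.04. Tnfsf10, which encodes the death ligand TRAIL, stood at 54.9 CPM in the knockout and 96.5 CPM in the control (-0.81, -1.23 to -0.38), and Lamp1 at 68.9 CPM in the knockout and 106 CPM in the control (-0.62, -1.01 to -0.22).

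The 5 higher members were Gzmd, Gzme, Gzmf, Gzmg and Unc13d, and the first 4 belong to a cluster of similar granzyme genes on chromosome 14. These 4 had 2907 UMIs in the knockout and 111 UMIs in the control. In the knockout, 99.3% of them lay in 6 cells, and in the control 85.6% lay in 2 cells. Each of those 8 cells also held Gzmc and Itga1 RNA, and they were deep, with a median of 31797.5 UMIs in the 6 knockout cells and 32876.5 UMIs in the 2 control cells. A UMI of Gzmf was found in 1.55% of knockout and 2.08% of control cells. With cells over 20000 UMIs left out, its log2 ratio was -4.78, against 3.44 with all cells. Unc13d, needed for granule release, had 76 knockout UMIs and 10 control UMIs (1.02, 0.07 to 2.14).

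A Gzmc UMI was held by 45 of 323 knockout cells (13.9%, 10.3 to 18.2) and 23 of 96 control cells (24.0%, 15.8 to 33.7), and these intervals overlap, while the summed level was 1039 CPM in the knockout and 962 CPM in the control. With each cell weighted equally its log2 ratio was -0.72, against 0.11 for summed UMIs. After thinning, 8.15% of knockout and 15.96% of control cells held it. The 5 cells with most Gzmc held 84.4% of its UMIs in the knockout and 91.5% in the control. Over Gzmc, Gzmd, Gzme, Gzmf and Gzmg, the reference transcripts are 76.2% to 94.8% identical between pairs and the 250-base promoters 84.4% to 95.6% identical. Each of the 5 promoters holds 2 matches of the Runx letters. How the counting divided reads among such similar genes is not given in the sources used here, so their single values are uncertain.

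**Figure D3:**
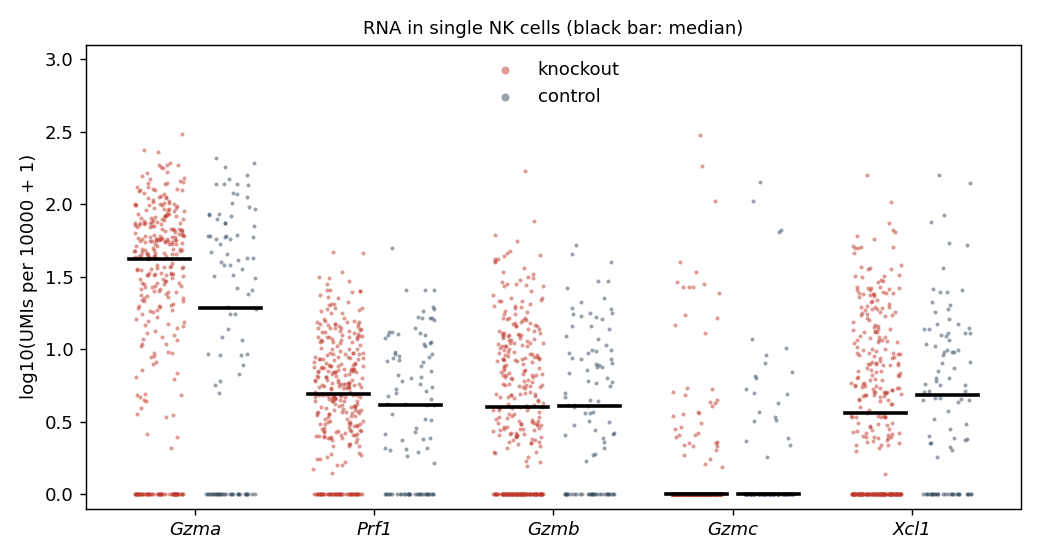
RNA of 5 genes in single NK cells, as log10 of UMIs per 10000 UMIs plus 1, with each point 1 cell, knockout in red and control in dark blue, and black bars at the medians. The Gzma median lies higher in the knockout, at 41.1 UMIs per 10000 against 18.2 in the control, and Gzmc is at 0 in most cells of both libraries, with a few cells far above.

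Residency genes included 4 that were lower in the knockout cells. Of 16 list members with at least 50 UMIs, of 20 in all, 1 (Socs2) passed 1.5-fold upward and 4 downward, and the median log2 ratio was 0.04. For Socs2, 1 cell held over 25% of the UMIs of a library. Without the cells over 20000 UMIs, 0 were higher and 5 lower, with a median of -0.21, against 0.02 over the 6203 genes tested there. The shares of those genes past 1.5-fold are not given here. Cxcr6, a chemokine receptor that retains lymphocytes in tissue, stood at 39.8 CPM in the knockout and 64.8 CPM in the control (-0.70, -1.21 to -0.18), a ratio that was -1.29 with each cell weighted equally. A Cxcr6 UMI was found in 11.5% (8.19 to 15.4) of knockout and 25% (16.7 to 34.9) of control cells, and after thinning in 3.13% (1.51 to 5.69) and 11.7% (5.99 to 19.97). In cells rich in C1q RNA the share was 0.264% in the knockout and 0.342% in the control. Tmem176a stood at 44.2 CPM in the knockout and 102 CPM in the control (-1.20, -1.63 to -0.77), and its neighbour Tmem176b at 50.9 CPM and 113 CPM (-1.15, -1.56 to -0.74). Both encode membrane proteins. Ckb, a creatine kinase gene, was the other lower member (-0.64, -1.19 to -0.07).

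Itga1, the CD49a gene, stood at 93.3 CPM in the knockout and 105 CPM in the control, with a log2 ratio of -0.17 (-0.54 to 0.22). Without the cells over 20000 UMIs the ratio was -0.69. It was found in 25.7% (21.0 to 30.8) of knockout and 31.3% (22.2 to 41.5) of control cells. Itga1 without Eomes, the combination closest to ILC1, was found in 7.12% (4.57 to 10.5) of knockout and 21.9% (14.1 to 31.5) of control cells. After thinning these shares were 7.52% (4.88 to 10.99) and 10.6% (5.22 to 18.7), and these intervals overlap. Itga1 with Eomes was found in 18.6% of knockout and 9.38% of control cells. Other residency genes were near level, with log2 ratios of 0.26 for the early activation gene Cd69, 0.13 for Rgs1 and -0.30 for Inpp4b. Zfp683, which encodes Hobit, had 0 UMIs in the knockout and 2 UMIs in the control.

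In summed level, cells with Itga1 RNA differed from the others in the same direction in both libraries for some genes, but not for all. With over without Itga1, the log2 ratio of Xcl1 was 0.87 in the knockout and -0.14 in the control. That of Gzmc was 5.90 in the knockout and -0.03 in the control. There were 83 such cells in the knockout and 30 in the control, against 240 and 66 without it, and cells with Itga1 were deeper, with medians of 8711 and 8843 UMIs against 5969 and 6004.5 UMIs. Cxcr6 stood at 76.5 CPM in knockout cells with Itga1 and 15.4 CPM in those without, and at 133 CPM and 20.5 CPM in the control. Nt5e, which encodes the ectonucleotidase CD73, was also higher with Itga1, by log2 ratios of 2.15 in the knockout and 2.14 in the control, and Tnfsf10 by 1.94 and 1.29. Gzma was lower with Itga1, with log2 ratios of -1.24 and -1.09, and so were Ccl5 (-1.76 and -1.57) and Klf2 (-1.48 and -1.09). Within the cells with Itga1, Prf1 was higher in the knockout than in the control (1.52, 1.09 to 1.98), as was Eomes (0.95, 0.33 to 1.63), whereas without Itga1 their ratios were -0.08 (-0.26 to 0.11) and 0.06 (-0.23 to 0.37). A Prf1 UMI was held by 81.9% of knockout and 56.7% of control cells with Itga1, and after thinning by 46.3% and 37.9%.

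Cells without Gzma carried more RNA of some residency genes in both libraries. Nr4a1, Inpp4b, Nr4a3 and Nr4a2, the residency genes with most UMIs, were not among those compared. This split was chosen after the Gzma values were seen. It placed 57 knockout cells (17.6%) and 33 control cells (34.4%) without Gzma. Those cells were deeper than the others, with medians of 10335 and 6210 UMIs without and with Gzma in the knockout, and 8378 and 5934 UMIs in the control. In the knockout, Cxcr6 stood at 107 CPM in cells without Gzma and 15.5 CPM in cells with it, and in the control at 115 CPM and 31.9 CPM. Tmem176b followed the same order, at 139 CPM and 19.05 CPM in the knockout and 259 CPM and 18.2 CPM in the control. Eomes ran the other way, at 59.9 CPM without and 291 CPM with Gzma in the knockout, and 24.5 CPM and 303 CPM in the control. Prf1 did so too, at 252 CPM and 712 CPM in the knockout and 122 CPM and 728 CPM in the control.

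Between the libraries, some genes had an interval that excluded 0 in one of these sets and not in the other, and the difference between the sets was not tested. In cells with Gzma, the log2 ratio of knockout over control was -0.06 (-0.33 to 0.23) for Eomes, -0.03 (-0.21 to 0.15) for Prf1 and 0.07 (-1.06 to 1.38) for Tmem176b, whereas Cxcr6 was lower in the knockout at -1.04 (-1.99 to -0.01) and Il7r at -1.27 (-2.13 to -0.35). In cells without Gzma, it was -0.10 (-0.71 to 0.53) for Cxcr6, -0.44 (-1.002 to 0.15) for Il7r and -0.41 (-1.04 to 0.23) for Ckb. In the same cells it was low for Tmem176b at -0.89 (-1.34 to -0.44), for Tnfsf10 at -0.68 (-1.20 to -0.14) and for Cd7 at -0.91 (-1.32 to -0.50). Eomes and Prf1, level in the cells with Gzma, were higher in the knockout in the cells without it, at 1.29 (0.13 to 2.69) and 1.04 (0.52 to 1.61). All these sets kept the cells over 20000 UMIs, 21 in the knockout and 3 in the control. Cells with Gzma were 266 of 323 in the knockout with the deep cells and 256 of 302 without them. In the control they were 63 of 96 and 61 of 93. The log2 ratios of the 2 sets were not taken without the deep cells. Xcl1, which encodes a chemokine that draws dendritic cells, was higher in cells without Gzma, at 1919 CPM against 728 CPM in the knockout and 2536 CPM against 551 CPM in the control. For some genes the log2 ratio of knockout over control had opposite signs without and with Gzma, with intervals that excluded 0 in both sets. It was -1.18 without and 0.23 with Gzma for Ccl5, and -0.40 and 0.40 for Xcl1. For Gzmb it was -0.36 and 0.36, and for Gzmc -0.95 and 2.76. Single cells held a large part of the Xcl1 and Gzmc sums. In the control set without Gzma, 1 cell held 332 of the 726 Xcl1 UMIs, and 1 cell held 296 of the 633 Gzmc UMIs. In the knockout set with Gzma, 1 cell held 1389 of the 1995 Gzmc UMIs. The intervals do not cover such gathering of UMIs, and the opposite signs were not tested without these cells.

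**Figure D4:**
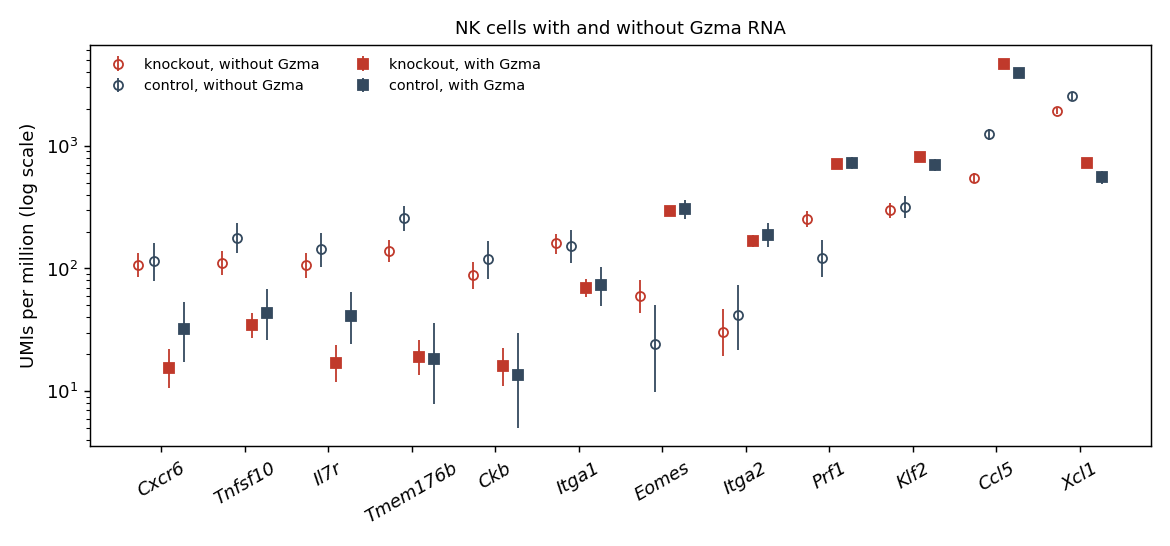
Levels of 12 genes in UMIs per 1000000 UMIs on a log scale, in NK cells without Gzma RNA (open circles) and with it (filled squares), knockout in red and control in dark blue, with exact 95% Poisson intervals. Cxcr6, Tnfsf10, Il7r, Tmem176b, Ckb, Itga1 and Xcl1 lie higher in the cells without Gzma in both libraries, and Eomes, Itga2, Prf1, Klf2 and Ccl5 lie higher in the cells with it.

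Genes of circulation and homing differed little as a list. Of 12 members with at least 50 UMIs, of 16 in all, Ccr7 and Ly6c2 passed 1.5-fold upward and As3mt downward, and the median log2 ratio was 0.13. Klf2, a transcription factor that keeps lymphocytes in circulation, stood at 678 CPM in the knockout and 547 CPM in the control (0.31, 0.15 to 0.47), in 83.9% of knockout and 70.8% of control cells. The higher Ccr7 rested on 10 knockout and 4 control cells, 1 of which held 44.4% of the knockout UMIs. In CD8 T cells of these libraries, 8 of 13 circulation genes passed 1.5-fold upward (7.5% of all genes there did) and 1 downward (6.81% did), and the median was 1.19. The difference between the cell types was not tested.

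Secreted factors were mostly level, with a few genes set by 1 or 2 cells. Ccl5, a chemokine gene abundant in NK cells, stood at 3546 CPM in the knockout and 2869 CPM in the control (0.31, 0.24 to 0.37), and Ccl4 at 1279 CPM in the knockout and 914 CPM in the control (0.48, 0.36 to 0.61). Ifng, which encodes interferon gamma, stood at 186 CPM in the knockout and 160 CPM in the control (0.22, -0.07 to 0.52). Xcl1 stood at 1043 CPM in the knockout and 1334 CPM in the control (-0.35, -0.46 to -0.25). For it, 5 control cells held 60.6% of the control UMIs, and without the cells over 20000 UMIs the ratio was 0.08. Ccl1 had 33 UMIs in the knockout and 857 UMIs in the control, all 857 in 2 cells. Ccl3 was lower over all cells (-0.84) but was found in 40.6% of knockout and 27.1% of control cells, and 1 control cell held 73.0% of the control UMIs.

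Receptor genes were near level. Of 18 activating receptor genes with at least 50 UMIs, 0 passed 1.5-fold upward and 2 (Crtam and Slamf6) downward, and the median was -0.02. For both, 1 cell held over 25% of the UMIs of a library. Klrk1, which encodes NKG2D, stood at 429.9 CPM in the knockout and 383 CPM in the control (0.17, -0.02 to 0.36). Of 15 inhibitory receptor genes, 0 were higher and 3 lower, Ctla4, Entpd1 and Nt5e, and the median was -0.11. For 2 of these 3, 1 cell held over 25% of the UMIs of a library. Klrd1, which encodes CD94, stood at 637 CPM in the knockout and 584 CPM in the control. The Klra genes encode the Ly49 receptors, a family of near-identical genes that differs between mouse strains, and reads from BALB/c cells were assigned to mm10, so their values are uncertain. Il12rb2, a receptor chain for interleukin-12, stood at 669.9 CPM in the knockout and 517 CPM in the control (0.37, 0.21 to 0.54), and Il2ra at 91.1 CPM and 170 CPM (-0.90, -1.21 to -0.57).

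Interferon-response genes were near level as a list in NK cells. Of 37 members with at least 50 UMIs, of 44 measured, 3 passed 1.5-fold upward and 5 downward, and the median was -0.04. For all 3 of the higher and 3 of the 5 lower genes, 1 cell held over 25% of the UMIs of a library. Isg15 stood at 62.7 CPM in the knockout and 119 CPM in the control (-0.92, -1.30 to -0.53), and Irf1, a transcription factor gene of the interferon response, had a log2 ratio of 0.25 (-0.02 to 0.52). In CD8 T cells of the same libraries, 19 of 38 members passed 1.5-fold upward (7.5% of all genes there did) and 1 downward (6.81% did). The median there was 0.60. The difference between the cell types was not tested. Genes of TGF-beta response and of MHC class I held no member past 1.5-fold among 13 and 16.

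Cell-cycle genes were higher over all NK cells, and less so without some deep or dividing cells. Of 22 members with at least 50 UMIs, of 27 in all, 16 passed 1.5-fold upward and 0 downward, and the median was 0.82. For 11 of the 16, 1 cell held more than 25% of the UMIs of the knockout or of the control library. Cells with both Mki67 and Top2a RNA were 16 of 323 in the knockout (4.95%, 2.86 to 7.92) and 2 of 96 in the control (2.08%, 0.253 to 7.32), and the 16 had a median of 21890 UMIs. Without cells over 20000 UMIs, 2 of 13 members were higher and 1 lower, with a median of -0.21, against 0.02 over the 6203 genes tested there. Without the cells that held both Mki67 and Top2a, 4 of 12 members were higher and 0 lower. The median was 0.39, against 0.02 over the 6596 genes tested there. The shares of all genes past 1.5-fold with such cells left out are not given here. After thinning, 11.6% of knockout and 10.6% of control cells held at least 5 UMIs of the list.

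Glycolysis and hypoxia genes lay lower as a list. They had a median of -0.28, below the lower quartile of all genes (-0.20), with 0 of 18 members past 1.5-fold upward and 4 downward, among them the glycolytic enzyme gene Eno1, at 216 CPM in the knockout and 331 CPM in the control (-0.61, -0.83 to -0.39). Genes of integrins and their adaptors had a median of 0.01, and 1 of 25 (Itga5) passed 1.5-fold. Fermt3, which encodes Kindlin-3, the kindlin of blood cells, stood at 156 CPM in the knockout and 125 CPM in the control (0.32, -0.01 to 0.66). Signalling adaptors had a median of 0.02, and Cd247, which encodes the CD3 zeta chain that NK receptors also use, stood at 296 CPM in the knockout and 187 CPM in the control (0.66, 0.39 to 0.93). Genes of dissociation stress had a median of 0.0047.

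**Figure D5:**
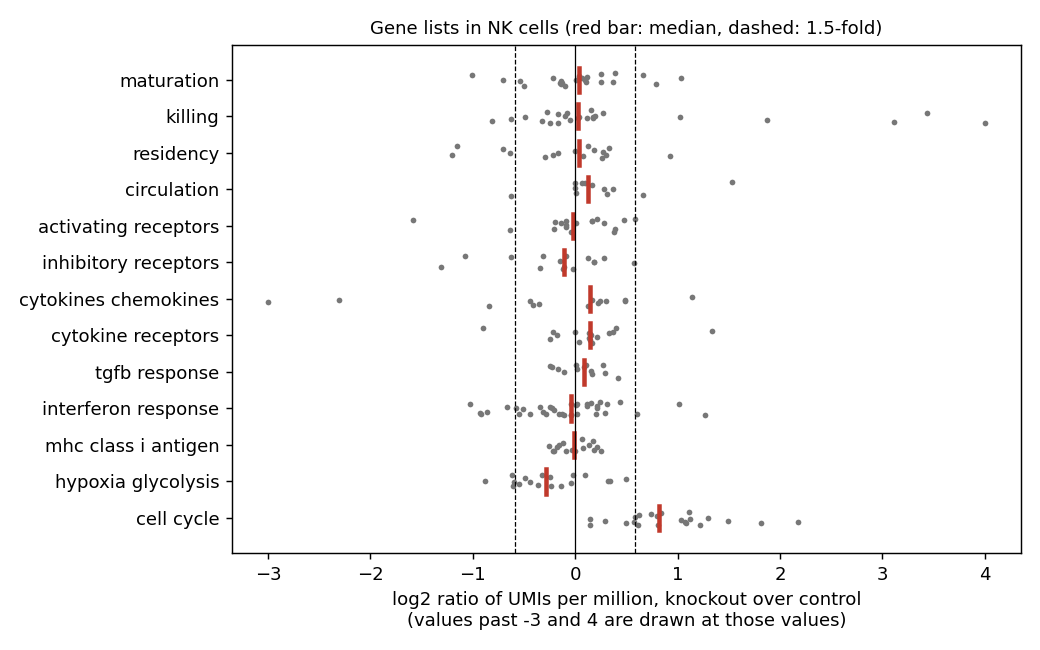
Log2 ratios of UMIs per 1000000 UMIs, knockout over control, for members of 13 gene lists with at least 50 UMIs, with each grey point 1 gene, red bars at the list medians and dashed lines at 1.5-fold. Points past -3 and 4 are drawn at those values; most medians lie near 0, the cell cycle median lies at 0.82 and that of hypoxia and glycolysis genes at -0.28.

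Genes ranked without regard to the lists mostly reflected single cells. The rule took the 10 genes higher and the 10 lower whose interval lay farthest from 0, among genes with a 2-fold difference, and for all 20 of them 1 cell held over 25% of the UMIs on the higher side. They included genes of other cell types, such as Mcpt1 and Tpsb2, proteases of mast cells, at 31.3 CPM and 0.737 CPM in the knockout and 1116 CPM and 70.3 CPM in the control. When genes with over 25% of either library's UMIs in 1 cell were set aside, a step added after these values were seen that asked for no minimum fold, the lower genes were led by Cebpb, an inflammatory transcription factor gene. It stood at 67.8 CPM in the knockout and 181 CPM in the control (-1.41, -1.74 to -1.08), in 34.1% of knockout and 61.5% of control cells. Ctla4 and Tmem176a came next among the lower genes. Among the higher genes were Apaf1, a gene of apoptosis (1.63, 0.84 to 2.53), and Foxo1.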

How the data were processed

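The authors deposited 1 matrix of UMI counts per gene and cell barcode, 32285 genes by 15288 barcodes. Per the submitters' processing notes, Cell Ranger 2.1.1 and mm10 were used, whereas the matrix header, per the file headers, names cellranger 6.0.1, so the version is uncertain. Barcode suffixes were matched to libraries by the library number in the labels alone. The matrix held 0 unmapped columns. NK cells, comparisons and gene lists were chosen with earlier results of these data known. UMIs of the NK cells of a library were summed and divided by their total (CPM), and ratios are knockout over control. Intervals are exact (Clopper-Pearson, Poisson, conditional binomial; scipy 1.17.1, numpy 2.4.6, pandas 2.3.3, Python 3.11.15). The interval of the ratio was tested on simulated counts drawn without variation between cells, so that test does not cover UMIs gathered in a few cells. Doublets were called with Scrublet (scanpy 1.11.5) only as an alternative. Transcript identity came from global alignment (Biopython 1.88). "Called" means at least 1.5-fold among genes with at least 50 UMIs.

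The rule for named genes allowed the genes that chose the cells, members of the lists (those with most UMIs and with the highest and lowest ratio first) and, outside the lists, the 10 genes higher and 10 lower whose interval lay farthest from 0 among genes with a 2-fold difference and at least 50 UMIs, without markers of other cell types. CD8 T cells met the same filters with a Cd3 and a Cd8a UMI and none of Cd4, Ncr1, Epcam or Siglech. Division of the cells by Gzma, and the ranking without genes set by 1 cell, were added after the values were seen. Mx1, Mx2 and Scart2 were not used here.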

Additional observations from a re-analysis of the deposited data

How the results depend on the processing

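The 3 measures of NK cell abundance kept their direction under all 7 alternatives run for them, with log2 ratios from 1.74 to 1.99 of all cells, 1.34 to 1.62 of Ptprc cells and 0.96 to 1.22 against T cells. The alternatives chosen after seeing the data left out NK cells over 20000 UMIs, with other lineage RNA, or with both Mki67 and Top2a. Where these were run for abundance, such cells left the NK count only and stayed in the denominators. They therefore do not give the share among cells without them. Without cells over 20000 UMIs the residency median was -0.21, the cell cycle median turned to -0.21 and Gzmf, on few UMIs, to -4.78. Requiring no T cell receptor constant UMI left 18 knockout and 6 control cells and 663 genes, of which 219 were higher and 161 lower, with maturation and residency medians of 0.44 and 0.36 and opposite signs, with intervals that exclude 0, for Eomes (-3.005, -4.35 to -1.76), Ccl5 (-0.98, -1.23 to -0.71), Klf2 (-0.89, -1.39 to -0.37) and Xcl1 (1.39, 0.28 to 2.75). Tnfsf10 (1.61) and Il7r (2.44) turned with intervals that include 0, and no interferon median could be given. Past 1.5-fold were 260 genes higher and 132 lower of 2368 when thinned, 1200 and 914 of 9392 with a minimum of 20 UMIs, and 95 and 60 of 3097 with a minimum of 200 UMIs; the cause was not tested. The killing median ran from -0.11 to 0.29 over 14 alternatives. No paired analysis was possible because each group has 1 library, and for the same reason no replicate could be left out. The log2 ratio of the share with Itga1 and no Eomes was -0.29 (-1.59 to 1.20) after thinning with the rule applied again. That left 244 knockout and 70 control cells. With all UMIs it was -1.62 (-2.54 to -0.69), and the cause was not tested. The thinned shares of cells given in the results above were instead taken over 319 knockout and 94 control cells chosen before thinning.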
